A study of Arabidopsis thaliana with 12 samples.

Results

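XERICO (AT2G04240), DI21 (AT4G15910), MAMI (AT5G54110) and AILP1 (AT5G19140) are 4 Arabidopsis thaliana genes linked by name or earlier work to abscisic acid, drought, osmotic stress or aluminium. They are 4 of the 691 genes that had a probe of their own on the array, meaning a probe whose annotation names exactly 1 gene. Each had 1 such probe. They were selected on their leaf and stem intensities, so the differences between tissues given for them are descriptions. Whether a member passed the threshold of the fit over all probes is stated as part of that choice and is not a test of it.

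The study compared stem with leaf of wild-type plants of ecotype Columbia 0, with 6 single-channel arrays of total RNA from each tissue, numbered 1 to 6. The sources used here do not give plant age, growth conditions or any treatment, nor whether the samples came from separate plants. A p-value therefore reflects the spread among these arrays alone, part of which may be technical. Each tissue was measured in bulk, so fewer cells of a type and less RNA per cell cannot be told apart.

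Abscisic acid is the plant hormone of water deficit. Its receptors of the PYR/PYL family, once bound to the hormone, inhibit type 2C protein phosphatases, which releases SnRK2 kinases to act on transcription factors and on ion channels of guard cells. Genes downstream include those for LEA (late embryogenesis abundant) proteins, small hydrophilic proteins that accumulate in drying tissue. XERICO is a small RING-H2 zinc finger protein, and plants that overexpress it hold more abscisic acid and tolerate drought better. DI21, named for drought induction, belongs to an LEA family. The name of MAMI stands for membrane-associated and mannitol-induced, after a sugar alcohol used to impose osmotic stress. AILP1 is named for its likeness to aluminium-induced proteins. None of these stresses was applied as far as the labels say, so the values below are levels in tissue with no stated treatment.

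The 4 genes fell into a leaf-high and a stem-high pair. XERICO and DI21 were lower in stem than in leaf, and MAMI and AILP1 were higher. After normalization XERICO was 5.86-fold and DI21 2.63-fold lower in stem, while MAMI was 7.34-fold and AILP1 6.06-fold higher. In normalized values leaf and stem did not overlap for any of the 4, and all 4 were past the threshold of an adjusted p under 0.05 (limma, all probes) with 12 samples. Neighbouring numbers resembled repeats of one sample, so there may be only 3 independent samples per tissue. With neighbours averaged, 2 of the 4 were past the threshold (XERICO and MAMI), and DI21 and AILP1 were not. In that setting 42 of 2891 tested probes passed. With 12 samples, 24.2% of 2657 tested probes passed the threshold, 14.1% as higher and 10.1% as lower in stem. So did 24.5% of the 510 tested genes with a probe of their own. The groups were without overlap for 16.4% of the 1870 probes with 12 values, 8.24% as higher and 8.13% as lower in stem. AILP1, listed at 0 in leaf sample 6, is not among those probes, and its normalized groups were compared without that sample. The leaf and stem values chose the members, so the counts of members are not support for anything.

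The arrays differed in ways that touch all 4 genes. Of 3439 probes, 658 to 785 were at 0 in leaf arrays and 479 to 536 in stem arrays, and the median intensity of an array, where the top of the scale is 100, was 0.104 to 0.154 for leaf and 0.154 to 0.324 for stem. Array intensity has no count behind it, and the number of arrays limits the precision. Neighbouring numbers (1 and 2, 3 and 4, 5 and 6) resembled each other more than other samples of their tissue did, with rank correlations of 0.86 to 0.89 against 0.68 to 0.81 in leaf and 0.97 to 0.98 against 0.82 to 0.90 in stem. Leaf samples 1 and 2 stood apart, with rank correlations of 0.70 to 0.82 with stem and 0.68 to 0.71 with leaf samples 3 to 6, which correlated with stem at 0.58 to 0.68. The part of this likeness in the members' values was not tested, and the values are therefore given with and without numbers 1 and 2. The tissue labels could be checked little. Of 84 listed photosynthesis genes 6 were tested. Of these, 1 passed as higher in stem (PSBW of photosystem II, by 1.62 ± 0.42, SE, limma adjusted p = 0.013) and 0 as lower, also at an unadjusted p under 0.05. The others differed by -0.21 (LHB1B2), -0.13 (PSBY), -0.096 (PRK), 0.14 (PSAN) and 0.96 (PSB27). The median of the 6 was 0.022, against 0.13 over all tested probes. With each array centred on its median, 0 passed as higher and 3 as lower. Of 106 listed flower genes 2 were tested, AGL26 and AGL103 (limma adjusted p = 0.43 and 0.96). None of 79 listed vascular and secondary wall genes of stem had a probe of its own.

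XERICO, the RING-H2 protein, was brighter in leaf than in stem in every array. Its deposited intensity in leaf was 1.93 at the lowest, 2.30 at the median and 3.39 at the highest. In stem the lowest was 0.399, the median 0.487 and the highest 0.524. Every leaf sample thus lay above every stem sample in the deposited values, with the mean of leaf 5.11-fold that of stem. The stem arrays were close to one another, with a highest value 1.31-fold the lowest, against 1.76-fold in leaf. After log2 conversion and quantile normalization, XERICO averaged 1.19 ± 0.21 over the 6 leaf arrays and -1.36 ± 0.43 over the 6 stem arrays (SD). The difference, stem minus leaf, was -2.55 ± 0.21 (SE). Without numbers 1 and 2 the difference was -2.90. Of the tested probes, 0.715% had a lower difference.

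In stem XERICO differed more between the pairs of neighbouring numbers after normalization than in the deposited values. In deposited values stem samples 1, 2 and 3 lay at 0.509, 0.511 and 0.524. In normalized values the mean of stem samples 1 and 2 was -0.85, that of 3 and 4 was -1.77 and that of 5 and 6 was -1.46. In leaf the 3 means were 1.0002, 1.24 and 1.34, so they differed by at most 0.34.

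DI21, the LEA family gene, had the smallest difference of the 4, and its groups overlapped in the deposited values. In leaf the lowest deposited intensity was 0.123, the median 0.156 and the highest 0.408. In stem the lowest was 0.0928, the median 0.119 and the highest 0.151. Leaf samples 3 and 4 (0.337 and 0.408) stood above the other 4 leaf samples, which reached 0.175 at most. Stem sample 5 (0.151) and stem sample 4 (0.139) were above leaf samples 1 (0.138), 2 (0.123) and 6 (0.135), so in deposited values the groups were not separate. After normalization DI21 averaged -2.08 ± 0.50 over the leaf arrays and -3.47 ± 0.53 over the stem arrays (SD, n = 6 each). The difference was -1.395 ± 0.34 (SE), or -1.86 without numbers 1 and 2. Of the tested probes, 5.95% had a lower difference. DI21 was not past the threshold with neighbouring numbers averaged.

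The DI21 difference moved with the scaling of the arrays. It was -0.72 in the deposited values, where it was not past the threshold, and -1.296 with each array centred on its median. Over all tested probes the median of the difference was 0.62 in the deposited values, 0.13 after quantile normalization and 0.047 with centring. Relative to that median DI21 was lower in stem under each of these scalings.

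MAMI, the mannitol-induced membrane protein, was bright and even in stem and varied among the leaf samples. Its deposited intensity in stem was 2.59 at the lowest, 2.74 at the median and 3.19 at the highest, so that the highest was 1.23-fold the lowest. In leaf it was 0.182 at the lowest, 0.253 at the median and 0.746 at the highest, a 4.10-fold range. The mean of stem was 7.25-fold that of leaf in deposited values, and no leaf sample reached any stem sample. After normalization MAMI averaged -1.35 ± 0.88 over the leaf arrays and 1.53 ± 0.15 over the stem arrays (SD, n = 6 each). The difference was 2.87 ± 0.33 (SE). Of the tested probes, 0.753% had a higher difference.

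The leaf spread of MAMI lay between the neighbouring pairs more than within them. Leaf samples 1 and 2 were at 0.746 and 0.676 in deposited values, whereas leaf samples 3 to 6 lay between 0.182 and 0.267. In normalized values the means of the 3 leaf pairs were -0.28, -2.17 and -1.60, while neighbouring leaf samples differed by 0.028 to 0.50. In stem the 3 means were within 0.16 of each other. Without numbers 1 and 2 the difference was 3.36.

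AILP1, the aluminium-induced-like gene, was dim in leaf and was listed at 0 in leaf sample 6. Its other leaf values ran from 0.0296 in sample 5 to 0.250 in sample 1. In stem the lowest value was 0.444, the median 0.911 and the highest 1.42. The groups did not overlap in deposited values, since the highest leaf value was below the lowest stem value. After normalization, with the 0 left out as missing, AILP1 was at -2.94 ± 1.06 in leaf (SD, n = 5) and -0.34 ± 0.50 in stem (n = 6). The difference was 2.60 ± 0.44 (SE, 5 leaf and 6 stem values) and 4.11 with zeros set to the lowest value above 0 of the array, a setting in which it was not past the threshold, as with neighbouring numbers averaged. Of the tested probes, 1.39% had a higher difference.

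AILP1 varied among the pairs of numbers in both tissues. The means of the leaf pairs were -1.93, -3.23 and -4.39, the last from sample 5 alone, and those of the stem pairs were -0.92, 0.18 and -0.28. Leaf samples 1 and 2 were thus the highest of leaf and stem samples 1 and 2 the lowest of stem. Without numbers 1 and 2 the difference was 3.57. A second probe names AILP1 together with other genes, 3 genes in all, and was above 0 in 2 leaf samples and 0 stem samples, reaching 0.015 at most. It was not used for AILP1.

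**Figure D1:**
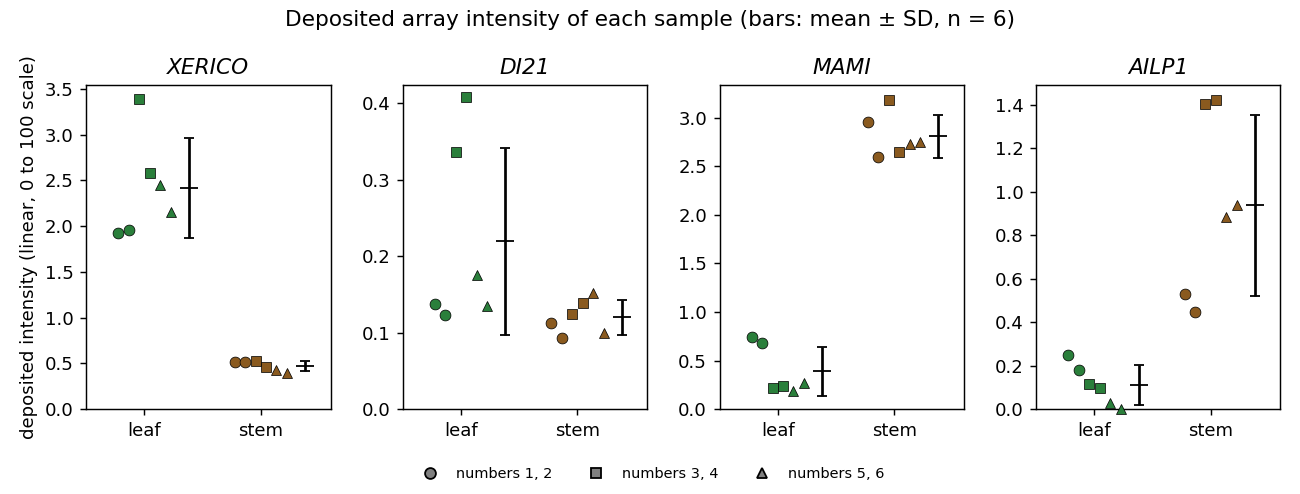
Deposited array intensity (linear, on a scale of 0 to 100, each gene with its own axis starting at 0) of the 4 genes in 6 leaf and 6 stem arrays, with symbols for the neighbouring numbers and black bars for mean ± SD. XERICO is higher in every leaf array, MAMI and AILP1 are higher in every stem array, and the values of DI21 overlap, with leaf samples 3 and 4 (0.337 and 0.408) above all others.

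The rank of a probe among all probes of its own array shows where it lay on that array. Quantile normalization works on the ranks of the values above 0, so the ranks given here largely restate the normalized values and are no separate evidence. The 2 are not identical, since zeros count here as tied at the bottom and were missing in the normalization. XERICO ranked at 95.1 to 96.4% of the probes in leaf and at 62.2 to 80.2% in stem. DI21 ranked at 51.2 to 74.2% in leaf and at 25.6 to 42.2% in stem. The deposited intensities of DI21 overlapped between tissues and its ranks did not. MAMI ranked at 60.9 to 88.3% in leaf and at 95.7 to 96.6% in stem. AILP1 ranked at up to 68.2% in leaf, with the sample at 0 placed at 9.58%, the middle of the probes tied at 0, and at 77.1 to 90.6% in stem. A rank places a probe among the others of the array and is no measure of one gene's transcript against another's.

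**Figure D2:**
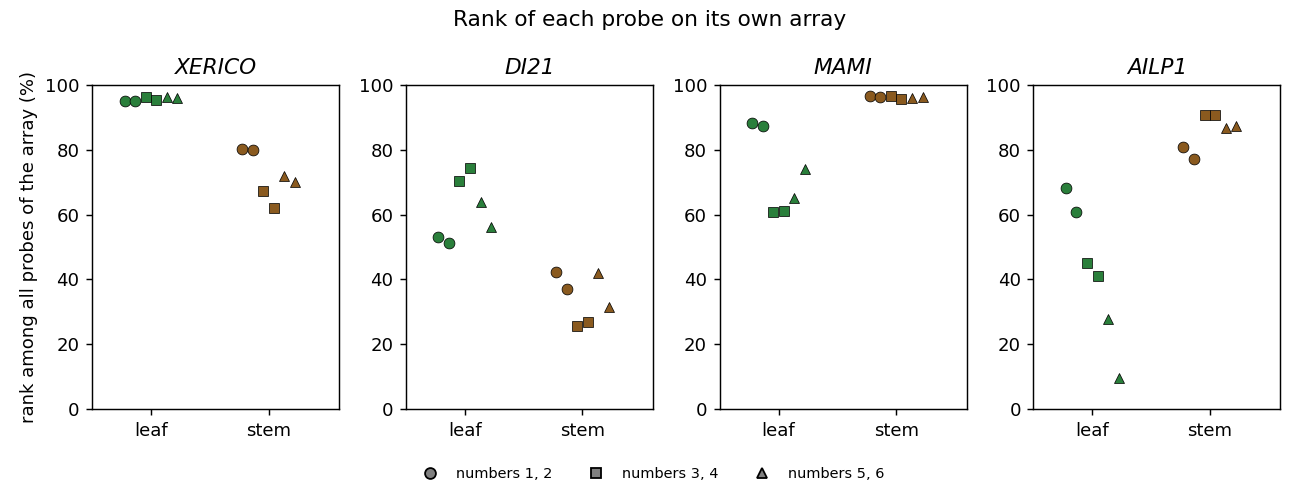
Rank of each gene's probe among all 3439 probes of its own array, in percent, for 6 leaf and 6 stem arrays, with symbols for the neighbouring numbers. XERICO and DI21 rank higher in every leaf array and MAMI and AILP1 in every stem array, and MAMI in leaf samples 1 and 2 (88.3 and 87.3%) lies nearest to its stem ranks.

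Ratios between members on the same array leave out the scale of the array. A ratio of a stem-high to a leaf-high member had to differ between tissues, because the members were chosen for it, so only its size and spread are described. The log2 ratio of the MAMI signal to the XERICO signal in deposited values was -3.98 at the lowest, -3.22 at the median and -1.37 at the highest in leaf. In stem it was 2.34, 2.57 and 2.79. The mean ratio was higher in stem by 5.42 on the log2 scale, and its spread in stem was 0.15 (SD, n = 6) against 1.13 in leaf. The ratio of AILP1 to DI21 was higher in stem by 3.82, from -0.96 ± 1.57 in leaf (SD, n = 5) to 2.85 ± 0.57 in stem (n = 6). The ratio of XERICO to DI21, the leaf-high pair, differed by -1.61, with 3.60 ± 0.52 for leaf against 1.99 ± 0.34 for stem (SD, 6 arrays each) and no overlap, so these genes differed between tissues by unequal amounts. The ratio of MAMI to AILP1, the stem-high pair, overlapped between tissues, at 1.67 ± 0.64 in leaf (n = 5) and 1.71 ± 0.67 in stem (n = 6). Such a ratio shows whether changes were unequal, and a ratio near its leaf value does not show that either gene stayed the same.

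Within each number the direction of a member's normalized difference was fixed beforehand. All normalized leaf values of a member lay on one side of all its stem values, and the members were chosen on these intensities. The shared sign is therefore no separate evidence, and only the sizes are described. In normalized values XERICO differed between the stem and the leaf sample of the same number by -3.10 to -1.85. DI21 differed by -2.57 to -0.37 and MAMI by 1.88 to 3.86, each over 6 numbers. AILP1 differed by 0.93 to 4.07 in the 5 numbers with a value. In normalized values numbers 1 and 2 gave the smallest size for all 4 genes. In deposited values this did not hold for DI21, which differed least in number 5 (-0.21), against -0.29 and -0.40 in numbers 1 and 2. The mean difference within numbers 1 and 2 was -1.85 for XERICO, -0.46 for DI21, 1.90 for MAMI and 1.01 for AILP1. Within numbers 3 and 4 the same genes gave -3.004, -2.54, 3.66 and 3.40, and within numbers 5 and 6 they gave -2.80, -1.19, 3.06 and 4.12. In normalized values the members thus had their smallest tissue difference in numbers 1 and 2. How common this is among all probes was not tested. Both tissues varied between pairs. The 3 pair means of XERICO spanned 0.92 in stem and 0.34 in leaf. For the others the span was larger in leaf, at 1.06 against 1.01 for DI21, 1.89 against 0.16 for MAMI and 2.47 against 1.10 for AILP1. What leaf samples 1 and 2 held was not tested.

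**Figure D3:**
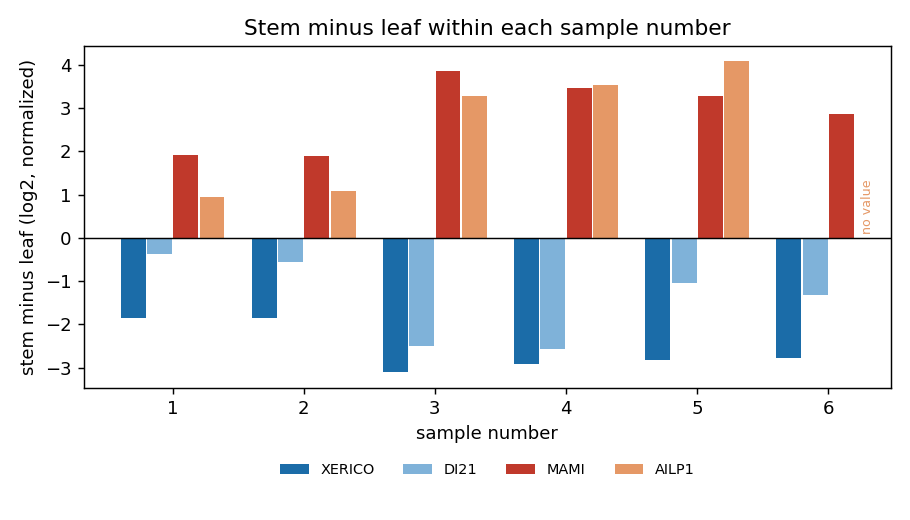
Stem minus leaf (log2, normalized values) between the stem and the leaf sample of the same number, as bars from 0 for numbers 1 to 6 and the 4 genes; AILP1 has no value for number 6, where its leaf value is 0. XERICO and DI21 lie below 0 and MAMI and AILP1 above 0 in every number with a value. This side was fixed beforehand, because the normalized values of each gene were separate between the tissues. The shortest bars are in numbers 1 and 2.

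The size of a member's difference also moved with the setting, while its sign did not. The settings reuse the arrays on which the members were chosen, so a constant sign is given as description. Over the 10 other settings that used several pairs of numbers, XERICO ranged from -2.91 to -2.33, DI21 from -1.86 to -0.72 and MAMI from 2.52 to 3.36. AILP1 had 9 such settings, since it is left out when only probes above 0 in all 12 samples are kept, and ranged from 2.47 to 4.11.

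**Figure D4:**
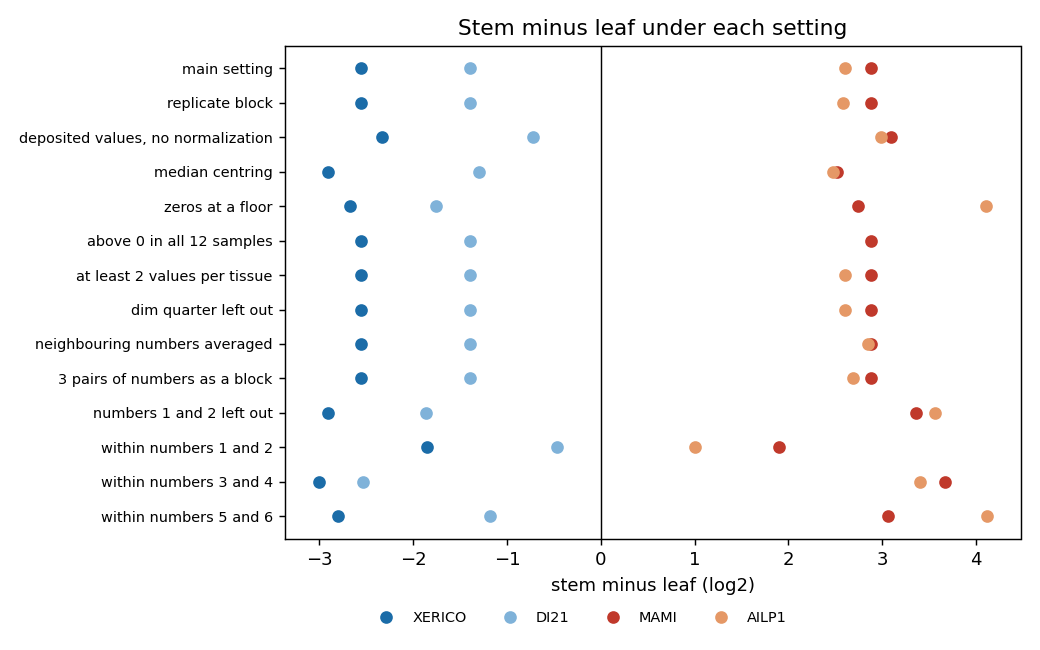
Stem minus leaf (log2) of the 4 genes under each processing setting and within each pair of neighbouring numbers, 1 point per gene and setting, with no error drawn. The points of a gene stay on one side of 0, DI21 is nearest to 0 within numbers 1 and 2 (-0.46), and AILP1 is farthest from 0 within numbers 5 and 6 (4.12).

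The genes with the most similar profile were sought among the other genes with a probe of their own, by the root-mean-square difference between profiles after each was centred on its mean over the samples. The comparison covered 354 genes over 12 samples, or 363 genes over the 11 samples in which AILP1 was above 0. For XERICO the nearest were AT3G04210 (0.41 on the log2 scale), AT4G00170 (0.45) and AT2G35490 (0.48), against a median of 1.52 over all genes compared. For DI21 they were AT5G19210 (0.41), AT5G66780 (0.42) and AT3G26580 (0.43), against a median of 1.11. For MAMI they were AT1G17160 (0.37), AT3G32930 (0.48) and AT1G76450 (0.55), against a median of 1.66.

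MAMI itself was the second nearest gene to AILP1. The nearest to AILP1 were AT4G17070 (0.52), MAMI (0.55) and AT3G16310 (0.61), against a median of 1.57. A shared direction and a shared spread follow from choosing genes by this measure and are given as description. AT1G17160, the nearest to MAMI, had -0.70 ± 0.90 for leaf against 1.74 ± 0.36 for stem (SD, 6 arrays each) after normalization. AT3G04210, the nearest to XERICO, was at -1.02 ± 0.21 in leaf and -2.93 ± 0.59 in stem after normalization.

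Few probes could be matched by name to the pathways around the members. Of the 3439 probes, 1877 were unnamed here and 870 named several genes, so what the array itself covers was not tested. Lists of the abscisic acid pathway (88 genes), of drought, salt and cold response (172), of heat and oxidative stress (167) and of gibberellin (40), the hormone whose DELLA repressors act on XERICO, hold 459 genes together. Of these, 0 had a probe of their own, and 5 probes name a listed gene along with others. The families of the members (RING-H2 genes, LEA relatives, VAP genes and aluminium-induced relatives) were listed as 44 genes by symbol, synonym or locus. Of those listed, the 4 members were the only ones with a probe of their own. A relative named here by locus alone may be missing from the list. So the 4 genes cannot be set beside the receptors, phosphatases, kinases or target genes of the pathway here.

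A further 7 genes had a stress, redox or induction word in their names, a set chosen after the values were seen and described with no test. DRT100 (AT3G12610), named for DNA damage toleration, was above 0 in 1 leaf and 1 stem sample, where its normalized values differed by -2.22. For the 6 with at least 4 values above 0 in each tissue, the difference between stem and leaf ran from -0.68 to 1.27, with a median of 0.058, 3 above 0 and 3 below, against a median of 0.13 over all tested probes. SIS (AT5G02020), named as salt-induced and serine-rich, had -1.84 ± 0.75 for leaf against -1.54 ± 0.36 for stem (SD, 6 arrays each). Deposited values of SIS ran from 0.143 to 0.434 across leaf and from 0.387 to 0.451 across stem, so the groups overlapped. CCS (AT1G12520), the copper chaperone of superoxide dismutase, was at -2.25 ± 0.54 in leaf (n = 5) and -2.06 ± 0.40 in stem (n = 6). SRX (AT1G31170), sulfiredoxin, which restores over-oxidised peroxiredoxin, was at -2.72 ± 0.73 in leaf and -2.79 ± 0.52 in stem (n = 6 each). NTRC (AT2G41680), the chloroplast thioredoxin reductase, had the lowest difference of the 6, from -2.51 ± 0.50 in leaf to -3.19 ± 0.58 in stem (n = 6 each). DRT101 (AT5G18070), which shares that name, had the highest, from -2.86 ± 0.68 in leaf (n = 4) to -1.60 ± 0.13 in stem (n = 6). IAA31 (AT3G17600), an auxin-inducible repressor caught by the word rule and not a stress gene, was at 0.75 ± 0.53 in leaf and 0.63 ± 0.17 in stem (n = 6 each).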

How the data were processed

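The deposited table holds linear array intensity of 3439 probes in 12 samples, on a scale from 0 to 100 that is seen in the numbers. How the authors corrected background, how they scaled and what 0 means is not given in the sources used. Values were converted to log2, with zeros missing, and quantile normalized, since the medians of the arrays spanned 1.42 on the log2 scale. Probes with at least 4 values above 0 in each tissue (2657) were tested with R 4.3.3, limma 3.58.1 and statmod 1.5.0 (lmFit and a robust eBayes with trend, two-sided p adjusted by Benjamini-Hochberg over all tested probes). The fit was also run on simulated data with independent arrays and no missing values. That simulation cannot show how the fit behaves where neighbouring numbers are alike. Figures used matplotlib 3.10.9.

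Probes were named from the array's gene table and updated through RefSeq's gene table (TAIR10.1), from which only names were taken: 692 had 1 gene, 870 had several and 1877 were unnamed here. Lists match symbols and synonyms in that table. The members, the lists, the tests and the alternatives were chosen with earlier results of these data known. Named genes were the members, the 3 most similar profiles of each and the listed genes with a tested probe of their own. The genes with a stress, redox or induction word in their names were added after the values were seen. No sequences were used here, so a planned protein comparison was not made. Deviations from the tissue mean correlated at 0.17 to 0.26 between same-numbered samples of leaf and stem, all above 0.1, and at -0.17 to 0.15 otherwise, so the numbers pair the samples by the data, the labels giving only the number. The fit was fixed without a block.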

Additional observations from a re-analysis of the deposited data

How the results depend on the processing

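With the replicate number as a block, 708 probes passed in place of 643, AILP1 differed by 2.58, and no call of the 4 genes changed. With neighbouring numbers averaged (3 against 3) 42 of 2891 tested probes passed, 2 of the 4 genes among them (XERICO and MAMI), and 0 of the photosynthesis genes. That setting has fewer samples. The photosynthesis genes past the threshold numbered 2 in the deposited values (1 higher and 1 lower in stem) and 3 with median centring (0 higher and 3 lower). In the main setting there was 1, higher in stem. The calls were 374 higher and 269 lower in stem, but 675 and 160 in the deposited values, 257 and 315 with median centring, and 231 and 275 with zeros at a floor. XERICO differed by -2.91 with median centring, -2.90 without numbers 1 and 2, and -1.85 and -3.004 within numbers 1 and 2 and within 3 and 4. DI21 gave -0.72 in the deposited values, and -0.46 and -2.54 within the same pairs. MAMI gave 1.90 and 3.66 within them. AILP1 gave 4.11 with zeros at a floor, 3.57 without numbers 1 and 2, and 1.01 and 4.12 within numbers 1 and 2 and within 5 and 6. The cause of these moves was not tested. Leaving out each sample in turn gave 511 to 716 probes, with 4 of 4 members past the threshold. The differences were -2.65 to -2.44 for XERICO, -1.51 to -1.26 for DI21, 2.71 to 3.10 for MAMI and 2.24 to 2.91 for AILP1. The members were chosen on this contrast, and a sample left out alone leaves its neighbouring number in the fit. That count of members is therefore description only. The block of 3 pairs and the fits within pairs were chosen after seeing the data. No member had another probe of its own, so that alternative gave no value.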
